A study of Homo sapiens with 12 samples.

Results

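LNCaP cells given a precursor of the microRNA miR-135b for 24 h were compared with LNCaP cells given a scrambled precursor for the same time. The groups were taken from the array titles and hold 4 of the 12 arrays of the study, 2 with miR-135b and 2 with the scrambled control, over all 11238 genes that could be measured. LNCaP is an established line of androgen-responsive human prostate carcinoma cells. Both precursors, the miR-135b construct and pre-miR negative control #1, were used at 20 nM, and other samples were taken after 12 and 36 h. The design text speaks of biological repeats, numbered 1 and 2 here, without saying how far they were kept apart, so a p-value measures the spread between these samples. The precursor was given transiently to 1 line and untransfected cells were not analysed here, so every difference is one between a specific and a scrambled precursor.

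A microRNA is a short RNA that guides an Argonaute protein to messenger RNAs. Pairing between its seed, bases 2 to 8, and a site in the message lowers the amount of that message or its translation. MIR135B gives 2 mature arms, and its 5p arm shares its seed with miR-135a, and a shared seed means that both read the same kind of site. The mature sequences below are RefSeq's on GRCh38.p14, shown because the seed is what the transfected precursor brings into the cell, with the seed in capitals. The 5p arms of miR-135b and miR-135a differ by C11U, miR-135b first, counted from the 5′ end and outside the seed.
miR-135b-5p, chr1:205448361-205448383, minus strand: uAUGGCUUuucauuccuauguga
miR-135a-5p, chr3:52294270-52294292, minus strand: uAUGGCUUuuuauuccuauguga
miR-135b-3p, chr1:205448323-205448344, minus strand: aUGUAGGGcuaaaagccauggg

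The arrays read messenger RNA, not the mature microRNA. No array of 24 h gave a signal above detection for the probe of MIR135B, the gene of the microRNA (0 of 4). The delivery of the precursor was not checked by any probe. Between 15967 and 17856 of 47323 probes were detected on an array of 24 h. Over the probes kept, the miR-135b arrays correlated with each other at r = 0.9891 and the scrambled arrays at r = 0.986. Treated and control arrays of the same repeat were as close, at 0.989 and 0.9879, and closer than those of different repeats, at 0.9824 and 0.9837. All 15 measured luminal prostate genes were detected at 24 h, among them the kallikrein gene KLK3 and the homeobox gene HOXB13. With the test of limma described below 0 of them passed. Its unadjusted p lay under 0.05 for 2 of them, and for 1232 of all 11238 genes. Of 9 neuroendocrine markers on the array 8 were detected on none of the 4 arrays, CHGA and SYP included. The same held for 7 of 8 basal markers with KRT5 and KRT14, for 9 of 13 fibroblast markers with COL1A2 and COL3A1, and for 8 of 11 leukocyte markers with PTPRC. Other members of these lists were detected on all 4 arrays: ENO2 (neuroendocrine), COL1A1, FBLN1 and VIM (fibroblast) and CD68 (leukocyte). DLK2, PDGFRA, CD14 and CD3D were detected on some of the arrays. In these bulk samples fewer cells that carry a transcript cannot be told apart from less transcript per cell.

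At 24 h, 36 genes rose (0.320% of the 11238 tested) and 55 fell (0.489%). A gene was called where limma's adjusted p, by Benjamini-Hochberg over all genes, lay under 0.05. All values below are normalized signals or differences on the log2 scale, a difference is miR-135b minus scrambled, and ± is the standard error of the fit. The rises had a median of 1.04 and the falls of -0.93, against 0.007 over all genes, and 20 rises and 20 falls reached 2-fold. The smallest difference called was 0.66 among the rises and -0.64 among the falls. Another 18 genes differed by 2-fold or more without being called.

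Since treated and control arrays of one repeat deviated together, the repeat number was also used as a block within each time. With this block there were 131 rises (1.17%) and 173 falls (1.54%), and 90 of the 91 genes passed again. CREB3, a transcription factor gene of the endoplasmic reticulum, was the 1 gene it lost (adjusted p = 0.0506). In each of the 91 genes both repeats gave the same direction and the groups did not overlap, which was the case for 65.2% and 41.9% of all genes. Genes were called for a difference that was large against the spread on these same arrays, so nothing is read from that count. The median size of the difference was 0.96 in repeat 1 and 0.98 in repeat 2.

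The count depends on estimating each gene's spread from all 12 arrays. With the 4 arrays of 24 h alone limma called 0 genes, with or without the block, although 1283 genes had an unadjusted p under 0.05 (2209 with the block). Without any 1 of the 4 arrays between 2 and 5 genes passed. LIAT1 and C12orf76 passed in all 4 of these fits, BBOF1, CPLX1, DNAAF19 and FOXN3 in 1 each. Scaling the arrays to equal medians in place of quantile normalization moved the median of all genes to 0.09, and 23 genes rose and 16 fell. All 91 genes kept their direction there, and 39 of them passed.

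**Figure D1:**
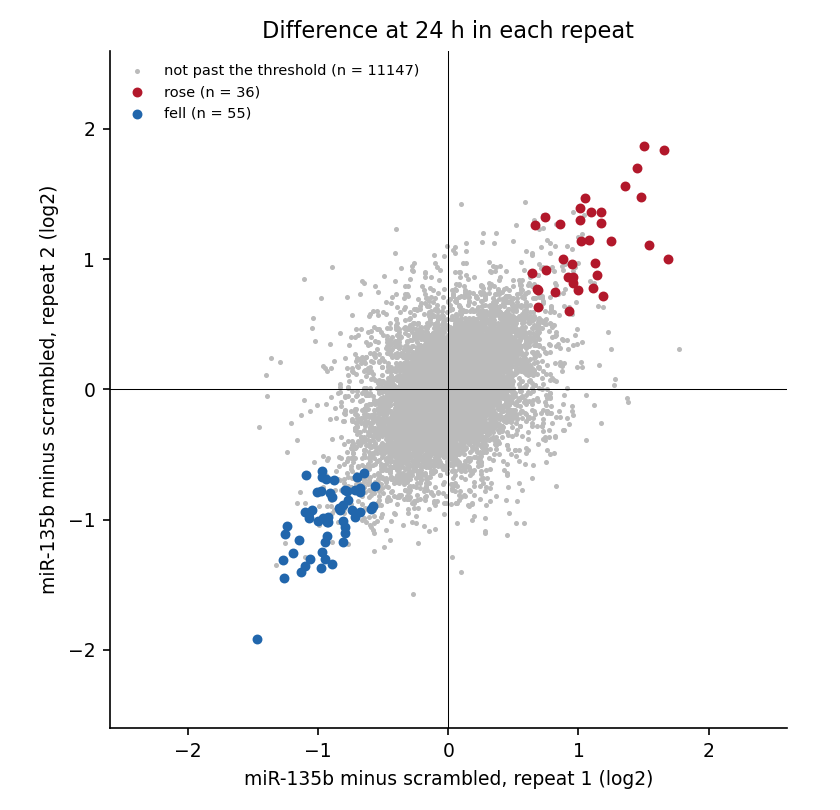
Difference between the miR-135b and the scrambled array in repeat 1 (x axis, log2) against that in repeat 2 (y axis, log2), each point being 1 of 11238 genes. The 36 rises (red) all lie above 0 in both repeats and the 55 falls (blue) below 0 in both, while grey points are the 11147 genes that did not pass.

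**Figure D2:**
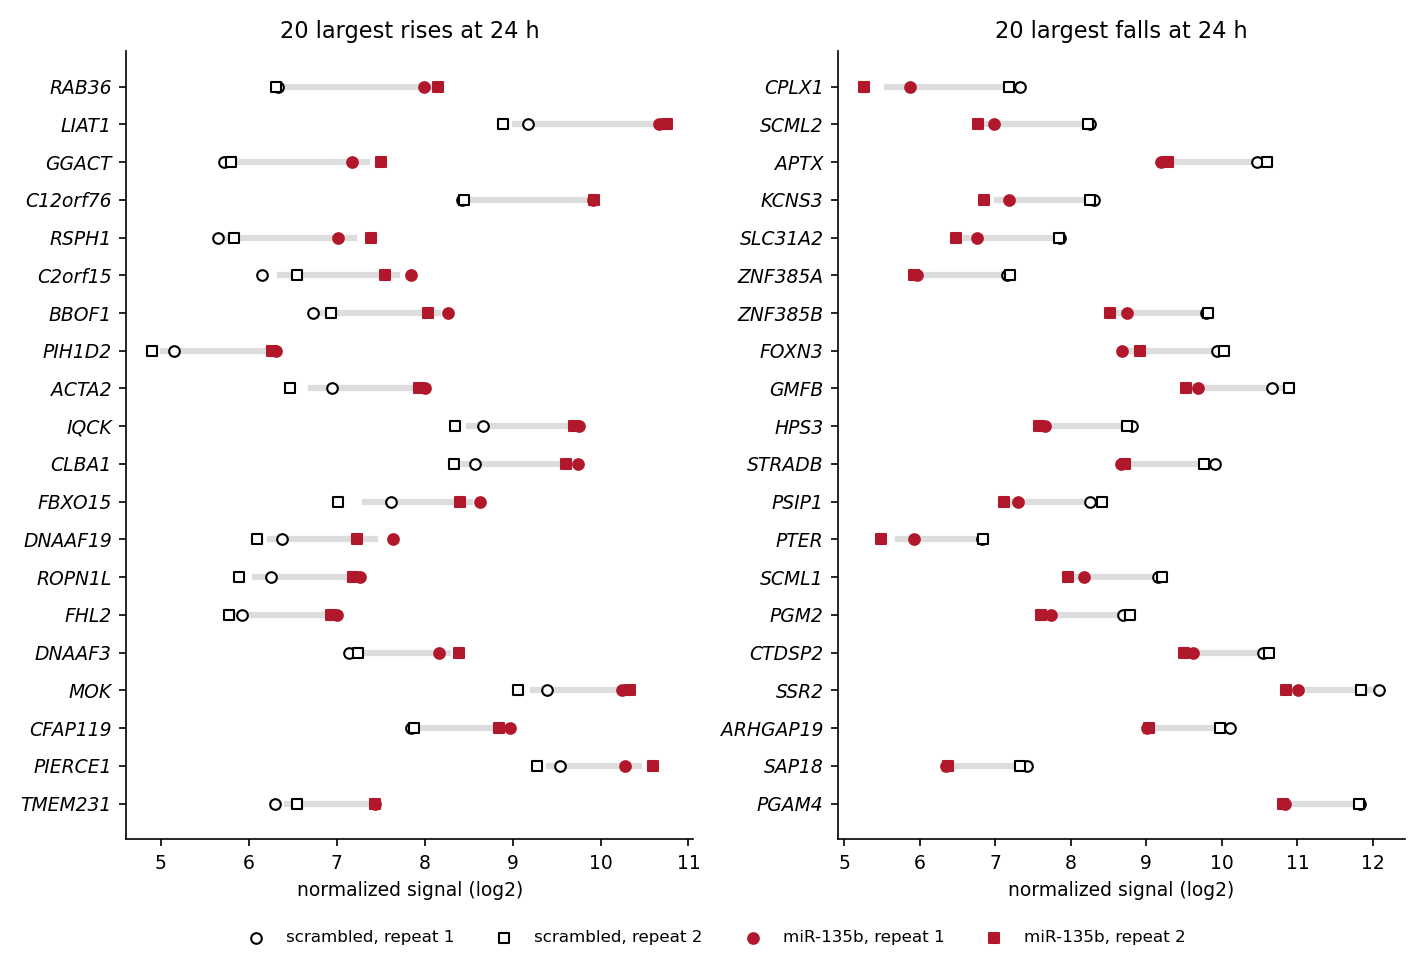
Normalized signal (log2) of the 20 largest rises (left) and the 20 largest falls (right) on each of the 4 arrays of 24 h, circles for repeat 1 and squares for repeat 2, open for scrambled and filled for miR-135b; grey bars join the group means. The groups do not overlap in any of these 40 genes, which was the case for 41.9% of all genes.

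Genes of cilia stood among the largest rises. A cilium is a microtubule rod, the axoneme, that grows from a basal body, and motile cilia also carry dynein motors, radial spokes and regulatory complexes. Cells build dynein arms in the cytoplasm with dedicated assembly factors before the arms are carried into the cilium. Prostate carcinoma cells are not multiciliated cells, and most genes of the motile axoneme were dark here: of 69 such genes on the array 38 were detected on none of the 4 arrays. These included FOXJ1, the master factor of motile cilia, the outer arm dynein genes DNAH5, DNAI1 and DNAI2, and the central apparatus gene HYDIN.

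Of the 30 axoneme and motile cilia genes that were measured 6 rose and 0 fell, and with the block 13 rose. Over all genes 0.320% rose, and 1.17% with the block. RSPH1, which encodes a radial spoke head protein, read 7.01 and 7.39 on the miR-135b arrays of repeats 1 and 2 and 5.65 and 5.83 on the scrambled arrays. It rose by 1.46 ± 0.19 (adjusted p = 0.0113), with 1 scrambled array above detection. BBOF1, a factor for the orientation of basal bodies, read 8.27 and 8.04 against 6.73 and 6.93 and rose by 1.32 ± 0.14 (adjusted p = 0.00692). In both genes every treated array lay more than 1 log2 unit above every control array.

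Assembly and docking factors of dynein arms are given next. DNAAF19 read 7.64 and 7.23 against 6.38 and 6.09, a rise of 1.20 ± 0.16 (adjusted p = 0.0113). DNAAF3 read 8.16 and 8.39 against 7.14 and 7.24, a rise of 1.08 ± 0.14 (adjusted p = 0.0113). ODAD4, which helps to dock outer dynein arms, read 8.39 and 8.27 against 7.44 and 7.31, a rise of 0.95 ± 0.14 (adjusted p = 0.0194). These 3 genes were detected on all 4 arrays. DNAAF11 passed as well (adjusted p = 0.0327), but from values near background, 5.55 and 5.56 against 4.59 and 4.69, with 1 treated and 0 scrambled arrays above detection, so no fold is given. It lost its call in 6 of 9 other settings that left out no single array. Among the others of this kind DNAAF2 stood at 0.17 without a call, DNAAF4 was detected on none of the 4 arrays, and DNAAF5 at -0.38 was the lowest member of the list, although its other probe read 0.66.

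Passing with the block alone were 7 further axoneme genes. Among them were subunits of the nexin-dynein regulatory complex, which coordinates the motors. DRC9 stood at 0.96 (adjusted p = 0.0945, and 0.0340 with the block). DRC4 stood at 0.54 (0.0875 and 0.0485). DRC3, with 1 treated and 0 scrambled arrays above detection, was at least 1.27-fold higher (0.159 and 0.0163). The cilia and flagella associated genes CFAP91, CFAP300 and CFAP69 stood at 0.98, 0.84 and 0.67, with adjusted p between 0.0108 and 0.0410 with the block. The assembly factor gene ZMYND10, again with 1 treated and 0 scrambled arrays above detection, was at least 1.07-fold higher (adjusted p = 0.0526, and 0.0445 with the block). Both DRC3 and ZMYND10 thus lay near background.

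Genes seen only in treated cells can enter such a list by being high there, so the list was also read over members detected on both scrambled arrays. Of these 22 genes 19 lay above 0 (86.4%, against 50.0% of all genes detected on both scrambled arrays), their median was 0.44, and 4 rose. Over all 30 members 27 lay above 0 (90.0%, against 51.3% of all genes), with a median of 0.51, 0.65 in repeat 1 and 0.55 in repeat 2. Without the detection filter 69 members entered and the median was 0.16. The summed linear signal of the list was 8360 to 8630 on the miR-135b arrays and 6620 to 6800 on the scrambled arrays. Not all members moved: DRC7 at 0.03, DNAH2 at 0.06 and SPAG1 at 0.16 differed by no more than their standard errors. The factors RFX2 and RFX3, which switch on ciliary genes, stood at 0.39 ± 0.33 and 0.35 ± 0.40 and did not pass.

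**Figure D3:**
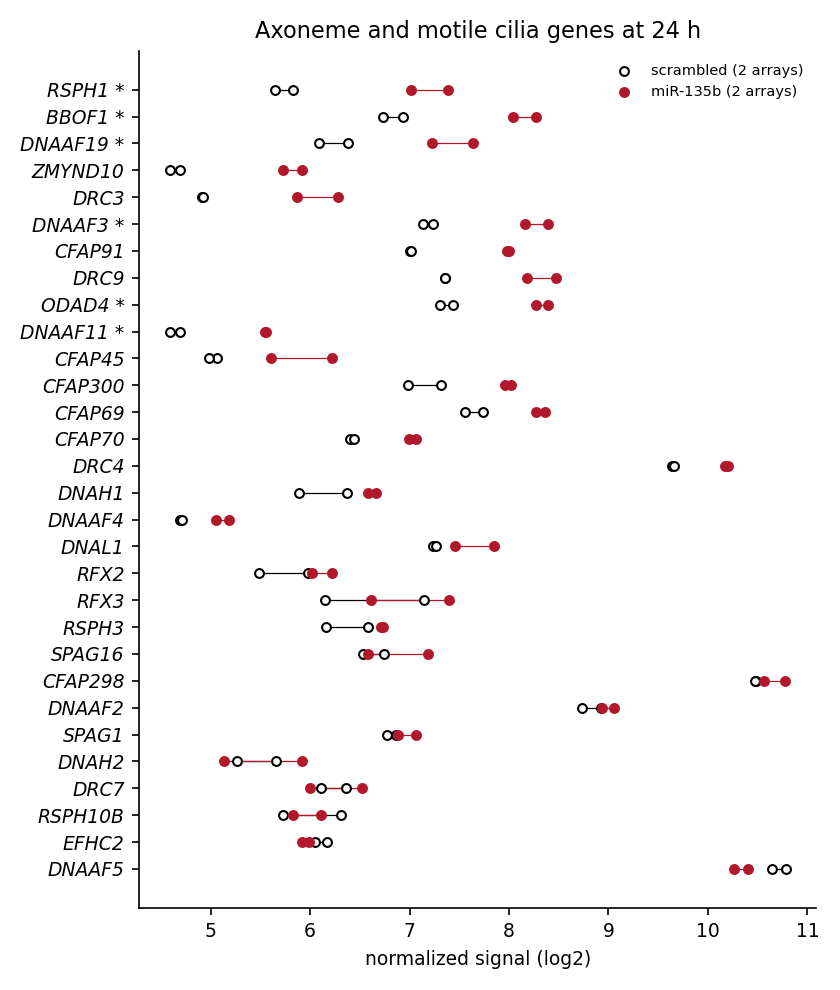
Normalized signal (log2) of the 30 measured axoneme and motile cilia genes on the 2 scrambled arrays (open) and the 2 miR-135b arrays (filled) of 24 h, ordered by their difference; a star marks the 6 genes that rose. The upper genes, from RSPH1 down to DNAL1, show filled points to the right of open ones, and the groups of DNAH2, DRC7 and RSPH10B overlap.

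Every cell with a primary cilium also needs the machinery that builds it, namely intraflagellar transport, the transition zone at its base and the BBSome. Of 46 measured genes of this machinery 3 rose and 1 fell, and with the block 7 rose and 1 fell. Over all genes 0.320% rose and 0.489% fell, and 1.17% and 1.54% with the block. TMEM231, a membrane protein of the transition zone, read 7.44 and 7.43 against 6.30 and 6.55, a rise of 1.01 ± 0.15 (adjusted p = 0.0203). IFT88, a core subunit of intraflagellar transport complex B, read 9.18 and 8.92 against 8.07 and 8.14, a rise of 0.94 ± 0.17 (adjusted p = 0.0357), with other probes at 0.43 and 0.93. AHI1, whose loss causes Joubert syndrome, was at least 1.49-fold higher (adjusted p = 0.0355), at 6.31 on both treated arrays and below detection on both scrambled ones.

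TMEM237, another protein of the transition zone, went the other way. It read 9.36 and 9.34 against 10.41 and 10.26 and fell by 0.99 ± 0.13 (adjusted p = 0.0113). Another 4 genes passed with the block alone, all above 0: IFT140 at 1.02, B9D1 at 0.62, WDR19 at 0.59 and TCTN1 at 0.57, with adjusted p between 0.0249 and 0.0497 there. In this list 37 of 46 members lay above 0 (80.4%, against 51.3% of all genes). The median was 0.30, or 0.29 over the 38 members detected on both scrambled arrays. The BBSome genes of the list lay between BBIP1 at -0.39 and BBS1 at 0.48, none of them past the threshold in either fit.

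Several other rises concern sperm flagella or cilia although they stood on neither list, and they are named here after their values were seen. PIERCE1, a protein inside axonemal microtubules, read 10.28 and 10.60 against 9.54 and 9.28, a rise of 1.03 ± 0.14 (adjusted p = 0.0151; other probe 1.00). CFAP119 read 8.97 and 8.85 against 7.84 and 7.88, a rise of 1.05 ± 0.16 (adjusted p = 0.0194). ROPN1L, a protein of the sperm fibrous sheath, read 7.26 and 7.19 against 6.25 and 5.89, a rise of 1.15 ± 0.17 (adjusted p = 0.0203). All 3 genes were detected on the 4 arrays. PIH1D2, of a protein family that works in dynein assembly, was at least 1.47-fold higher (adjusted p = 0.0371), at 6.31 and 6.26 on the treated arrays and below detection on the scrambled ones. RABL2A, a GTPase that acts with intraflagellar transport, passed at 0.94 (adjusted p = 0.0206), but its other probes read -0.81 and 0.51 and it has a near copy in the genome, so this value is uncertain. KATNIP passed at 0.76, and DNAI7 passed with no scrambled array above detection, so no fold is given for it.

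Factors of the RFX family bind a sequence element known as the X-box, and many ciliary promoters carry one. RefSeq's promoter table (GRCh38.p14) was searched for it on both strands. It was found for 3 of the 29 rises with a promoter in the table (10.3%), for 1 of 45 falls (2.22%) and for 156 of 9097 genes tested (1.71%). Among ciliary genes it was found for 5 of 21 axoneme genes (23.8%) and 4 of 42 genes of cilium assembly (9.52%). The windows below are those of the 3 rises, with the element in capitals, because they show how near to the gene start it lies. All 3 genes are on the plus strand, and the element begins at -16 from the start in DNAAF19, at -6 in CLBA1 and at -101 in C2orf15. In DNAAF19 the letters match only when read on the opposite strand.
DNAAF19, promoter chr17:44899479-44899778: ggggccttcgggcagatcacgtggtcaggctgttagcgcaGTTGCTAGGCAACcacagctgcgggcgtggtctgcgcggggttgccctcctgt
CLBA1, promoter chr14:104985538-104985837: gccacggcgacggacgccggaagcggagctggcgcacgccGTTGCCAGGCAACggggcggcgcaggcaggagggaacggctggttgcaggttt
C2orf15, promoter chr2:99141457-99141756: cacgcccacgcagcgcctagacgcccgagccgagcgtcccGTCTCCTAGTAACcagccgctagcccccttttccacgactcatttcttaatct
The X-box and the direction did not always go together. EFHC2 and RSPH10B hold one and stood at -0.16 and -0.05, IFT74 at 0.03, and GHR, the growth hormone receptor gene, holds one and fell by 0.85. The promoters of BBOF1, TMEM231 and LIAT1, which rose, gave no match. A match says only that the letters occur in the window.

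The largest rises of all were those of genes on neither list of cilia genes. RAB36, a Rab family GTPase of membrane traffic, read 7.99 and 8.15 against 6.33 and 6.31, a rise of 1.75 ± 0.19 (adjusted p = 0.00692). LIAT1, a partner of the arginyl transferase ATE1, read 10.67 and 10.76 against 9.17 and 8.89, a rise of 1.68 ± 0.14 (adjusted p = 0.00206). C12orf76, a gene of unassigned function, read 9.91 and 9.93 against 8.43 and 8.45, a rise of 1.48 ± 0.12 (adjusted p = 0.00206). Second probes of LIAT1 and C12orf76 read 1.73 and 1.45, close to the first. GGACT, a cyclotransferase that clears crosslinks from protein breakdown, read 7.17 and 7.50 against 5.72 and 5.80, a rise of 1.57 ± 0.20 (adjusted p = 0.00972), with 1 scrambled array above detection.

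C2orf15 and CLBA1, whose promoters are shown above, followed. C2orf15 read 7.84 and 7.55 against 6.15 and 6.55, a rise of 1.35 ± 0.19 (adjusted p = 0.0185). CLBA1, which carries a clathrin-binding box, read 9.74 and 9.61 against 8.57 and 8.33, a rise of 1.23 ± 0.13 (adjusted p = 0.00692). In both, every treated array lay above every control array, and the groups did not overlap in 41.9% of all genes. IQCK read 9.76 and 9.70 against 8.66 and 8.35, a rise of 1.23 ± 0.16 (adjusted p = 0.0118; other probe 1.13). FBXO15, an F-box adaptor, read 8.63 and 8.40 against 7.62 and 7.02, a rise of 1.20 ± 0.23 (adjusted p = 0.0485). Its scrambled arrays lay apart, and its adjusted p is close to the threshold. MOK, a kinase related to MAP kinases, read 10.25 and 10.33 against 9.39 and 9.06, a rise of 1.07 ± 0.17 (adjusted p = 0.0214).

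Contractile genes gave 2 rises among 22 measured, where 0.320% of all genes rose. ACTA2, smooth muscle actin, read 8.0 and 7.93 against 6.95 and 6.47, a rise of 1.26 ± 0.19 (adjusted p = 0.0194). FHL2, a LIM protein that acts as a coactivator of the androgen receptor and of serum response genes, read 7.0 and 6.93 against 5.92 and 5.77, a rise of 1.11 ± 0.13 (adjusted p = 0.00877), and its other probe read 1.44. With the block alone the tropomyosin gene TPM2 passed at 0.55, and the myosin phosphatase subunits PPP1R12B and PPP1R12C at -1.26 and -0.82. PPP1R12B was above detection on only 1 of the 2 treated arrays. With the block 1.17% of all genes rose and 1.54% fell. Of the 22 members 15 lay above 0 (68.2%, against 51.3% of all genes), with a median of 0.14. The remaining rises, between 0.66 and 0.95, were PPIL6, NARF, FBXO33, GASK1B, CTXN1, SNRPC, RAB11FIP1, TMEM248 and MRGBP.

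The largest fall was that of CPLX1, complexin 1, which clamps SNARE complexes in regulated secretion and has been reported as a miR-135 target. It read 5.87 and 5.26 against 7.33 and 7.18, lay below detection with miR-135b and was thus lower by at least 2.93-fold, with an adjusted p of 0.00911. SCML2, a Polycomb group protein, read 6.99 and 6.77 against 8.25 and 8.23 and fell by 1.36 ± 0.16 (adjusted p = 0.00877). Its relative SCML1 read 8.18 and 7.97 against 9.15 and 9.21 and fell by 1.11 ± 0.15 (adjusted p = 0.0125; other probe -0.89). Related genes also fell in the ZNF385 and FOXN families. ZNF385B read 8.74 and 8.52 against 9.79 and 9.82 and fell by 1.18 ± 0.15 (adjusted p = 0.0107; other probe -1.19). ZNF385A, of the same zinc finger family, read 5.97 and 5.93 against 7.16 and 7.19 and fell by 1.22 ± 0.22 (adjusted p = 0.0433).

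The forkhead repressor gene FOXN3 read 8.68 and 8.92 against 9.93 and 10.03 and fell by 1.18 ± 0.12 (adjusted p = 0.00692). Its paralog FOXN2 read 7.98 and 8.04 against 8.91 and 9.07 and fell by 0.98 ± 0.16 (adjusted p = 0.0260). APTX, which repairs abortive DNA ligation ends, read 9.19 and 9.29 against 10.46 and 10.60 and fell by 1.29 ± 0.14 (adjusted p = 0.00736; other probe -1.15). PSIP1, the chromatin tether LEDGF, read 7.30 and 7.12 against 8.26 and 8.42 and fell by 1.13 ± 0.18 (adjusted p = 0.0226). CTDSP2, a phosphatase of the RNA polymerase II tail, read 9.62 and 9.5 against 10.55 and 10.63 and fell by 1.03 ± 0.12 (adjusted p = 0.00911). In all 5 genes both treated arrays lay below both controls, and the groups did not overlap in 41.9% of all genes. SAP18, of the Sin3 corepressor and of splicing complexes, read 6.35 and 6.38 against 7.42 and 7.33 and fell by 1.01 ± 0.16 (adjusted p = 0.0226).

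KCNS3, a modifier subunit of voltage-gated potassium channels, read 7.18 and 6.85 against 8.31 and 8.25 and fell by 1.27 ± 0.21 (adjusted p = 0.0324). The calcium-activated potassium channel gene KCNMA1 read 7.38 and 7.74 against 8.71 and 9.09, a difference of -1.34 ± 0.26 that passed with the block alone (adjusted p = 0.0526, and 0.0108 with it). The other 5 of 7 measured potassium channel genes gave no call, and KCNG1 was the highest at 0.14. By comparison, 0.489% of all genes fell, and 1.54% with the block. SLC31A2, a copper transporter, read 6.76 and 6.48 against 7.86 and 7.84 and fell by 1.23 ± 0.18 (adjusted p = 0.0194). STRADB, a pseudokinase that binds the kinase LKB1, read 8.67 and 8.72 against 9.91 and 9.76 and fell by 1.14 ± 0.12 (adjusted p = 0.00692). Both were detected on all 4 arrays. GMFB, which trims branched actin, read 9.68 and 9.52 against 10.66 and 10.89 and fell by 1.17 ± 0.18 (adjusted p = 0.0215). The integrin activator FERMT2, the insulin signalling phosphatase PTPN1 and GHR fell by 0.93, 0.85 and 0.85.

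PGAM1, the glycolytic phosphoglycerate mutase, read 11.80 and 11.53 against 12.61 and 12.54 and fell by 0.91 ± 0.15 (adjusted p = 0.0255; other probe -0.74). PGAM4 read 10.83 and 10.81 against 11.83 and 11.82 and fell by 1.01 ± 0.12 (adjusted p = 0.00911; other probes -0.93 and -1.11), but the genes are near copies whose signals may not be told apart, so both values are uncertain. PGM2, a phosphopentomutase, read 7.74 and 7.61 against 8.69 and 8.78 and fell by 1.06 ± 0.13 (adjusted p = 0.00911). PDHX, a subunit of the pyruvate dehydrogenase complex, fell by 0.99 ± 0.15, and LARS2, the mitochondrial leucyl-tRNA synthetase, by 0.82 ± 0.15. MRPL16 read 10.00 and 9.98 against 10.96 and 10.98 and stood at -0.98 ± 0.12 (adjusted p = 0.00911). It was the 1 gene called among 76 of the mitochondrial ribosome, in a list whose median was -0.07. By comparison, 0.320% of all genes rose and 0.489% fell.

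SSR2, a subunit of the complex that assists protein entry into the endoplasmic reticulum, read 11.01 and 10.85 against 12.08 and 11.84 and fell by 1.03 ± 0.15 (adjusted p = 0.0187). Its other probe read -0.35, and the mean of its probes did not pass (adjusted p = 0.343). SSR1, of the same complex, fell by 0.64 ± 0.12 (adjusted p = 0.0398). NCLN, which works beside them in membrane protein insertion, fell by 0.82 ± 0.15. HPS3, which serves the biogenesis of lysosome-related organelles, read 7.66 and 7.58 against 8.81 and 8.74 and fell by 1.16 ± 0.14 (adjusted p = 0.00911). The proton pump subunit ATP6V1E1, the endosome factor VPS4A and the adaptor subunit AP3M1 fell by 0.79, 0.86 and 0.76. PTER read 5.93 and 5.49 against 6.82 and 6.84 and fell by 1.12 ± 0.17 (adjusted p = 0.0203), with 1 treated array above detection. TMEM97, the sigma-2 receptor gene, passed at -0.88, but its other probe read 0.61 and the mean of both did not pass (adjusted p = 0.843). CREB3, also below detection with miR-135b, was lower by at least 1.23-fold, with an adjusted p of 0.0477.

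The falls also held the methyltransferase gene PRMT6 at -0.97 (other probe -0.95), the translation repressor gene EIF4EBP1 at -0.86 and the ribosomal protein gene RPL36AL at -0.75, which has a near copy. The others, between -0.65 and -0.95, were KCTD10, CLDN12, JOSD1, B3GLCT, PEDS1, PDCL, RAVER2, C4orf46, CEP68, BNIP2, MYPOP, CPNE3, CHSY1, PIP4K2C, TMPO and BZW2. The falls lay in brighter genes than the rises, with a median signal of 9.22 against 7.89, and of 8.46 over all genes. Of the 10 rises with another kept probe 9 had all their probes on the same side of 0, and 13 of 14 falls did. No share over the 2909 genes with another kept probe stands beside these counts, so nothing is read from them.

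Genes that other work has reported as direct targets of the miR-135 family were read next. Of 20 that were measured 1 fell, CPLX1, and 4 fell with the block, while 0 rose in either fit. Over all genes 0.489% fell, and 1.54% with the block. The list had a median of -0.38, with 18 of 20 members below 0 (90.0%, against 48.7% of all genes). HIF1AN, the asparagine hydroxylase that restrains hypoxia-inducible factor, read 6.85 and 6.97 against 7.65 and 7.89, or -0.86 ± 0.21 (adjusted p = 0.113, and 0.0144 with the block). PHLPP2, a phosphatase that opposes AKT, read 6.96 on both treated arrays against 7.57 and 7.95, or -0.80 ± 0.18 (0.0876, and 0.0446 with the block). PTK2, focal adhesion kinase, read 10.48 and 10.47 against 11.05 and 11.28, or -0.68 ± 0.14 (0.0693, and 0.0367 with the block), but its other probe read -0.08. In these 3 genes both treated arrays lay below both controls, and the groups did not overlap in 41.9% of all genes.

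The other reported targets gave no call in either fit. The kinase gene STK38L read 5.32 and 5.46 against 6.39 and 5.63, lay below detection on both treated arrays and was lower by at least 1.23-fold (adjusted p = 0.317). NR3C2, the mineralocorticoid receptor, stood at -0.55 ± 0.18, with its other probe at -0.36. KLF4, a zinc finger factor, stood at -0.54 ± 0.34, and the BMP effector gene SMAD5 at -0.47 ± 0.21. The forkhead gene FOXO1 stood at -0.46 ± 0.18, the ubiquitin ligase gene SIAH1 at -0.40 ± 0.21, MTCH2 at -0.36 ± 0.20 and the cytokine receptor kinase gene JAK2 at -0.36 ± 0.27. The groups of these 8 genes did not overlap, which was the case for 41.9% of all genes, and none of the 8 passed. JAK2 was above detection on only 1 array of each group. Those of the next 6 overlapped: LATS2 at -0.07, TXNIP at -0.06, GSK3B at -0.05, BMPR2 at -0.04, ROCK2 at 0.11 and BTRC at 0.21. ROCK1 and RUNX2 were detected on none of the 4 arrays, so no value is given. Target sites were not looked for, because 3′ untranslated regions were not used here.

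Genes that switch on as cells enter S phase lay low without single calls. Of 40 measured G1/S and replication genes 0 rose and 0 fell with limma. Its unadjusted p lay under 0.05 for 17 of them, and for 1232 of all 11238 genes. Below 0 lay 38 of the 40 (95%, against 48.7% of all genes), with a median of -0.33, -0.31 in repeat 1 and -0.38 in repeat 2. With the block 4 fell, as did 1.54% of all genes. GMNN, geminin, which blocks a new round of origin licensing, read 7.87 and 7.92 against 8.86 and 8.97, or -1.02 ± 0.22 (adjusted p = 0.0785, and 0.0206 with the block). DTL, the adaptor by which the CUL4 ligase destroys licensing factors, read 6.61 and 6.14 against 7.48 and 7.06, or -0.90 ± 0.21 (0.110, and 0.0130 with the block). The arrays of repeat 2 were lower than those of repeat 1 in both groups. Subunits of the replicative helicase followed. MCM3 read 12.21 and 11.98 against 12.71 and 12.77, or -0.65 ± 0.15 (0.112, and 0.0378 with the block; other probe -0.93). GINS2 read 10.20 and 10.16 against 10.96 and 10.69, or -0.64 ± 0.13 (0.0629, and 0.0340 with the block).

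The rest of the helicase and its loaders stood between -0.58 and 0.18, with MCM10 at -0.58, MCM2 at -0.47, MCM5 at -0.46, CDC45 at -0.45, MCM6 at -0.33 and MCM7 at -0.25. The cyclin gene CCNE1 stood at -0.49, though its other probe read 0.29, and the sliding clamp gene PCNA at -0.53, with its other probe at -0.02. The ribonucleotide reductase gene RRM2, at 0.15, and the helicase gene GINS4, at 0.18, were the members above 0. Genes of G2 and mitosis behaved less uniformly: of 44 measured 0 passed (2 unadjusted, against 1232 of all 11238 genes). Below 0 lay 26 of them (59.1%, against 48.7% of all genes), and the median was -0.06. With the block KIF23, a kinesin of cytokinesis, fell by 0.78 (adjusted p = 0.0493) and the mitotic transcription factor gene FOXM1 by 0.59 (adjusted p = 0.0376), and KIF14 was the highest at 0.28. The difference between the G1/S and the G2/M list was not tested.

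Factors of the E2F family drive many S phase genes through a short promoter element. The letters TTTCCCGC, TTTGGCGC, TTTCGCGC and TTTGCCGC were searched on both strands of the same promoter table. They were found for 19 of 35 G1/S genes (54.3%), 3 of 37 G2/M genes (8.11%), 617 of 9097 genes tested (6.78%), 2 of 29 rises (6.90%) and 1 of 45 falls (2.22%). The windows of the 4 genes that passed with the block are shown because all 4 hold the element, given here in capitals. It begins at -80 from the start in GMNN, at -8 in DTL, at -174 in MCM3 and at -31 in GINS2, where the letters are those of the opposite strand.
GMNN, promoter chr6:24775163-24775462, plus strand: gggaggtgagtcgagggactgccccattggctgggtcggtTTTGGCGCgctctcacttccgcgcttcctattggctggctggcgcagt
DTL, promoter chr1:212035498-212035797, plus strand: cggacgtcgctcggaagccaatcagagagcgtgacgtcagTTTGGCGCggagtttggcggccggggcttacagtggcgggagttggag
MCM3, promoter chr6:52284693-52284992, minus strand: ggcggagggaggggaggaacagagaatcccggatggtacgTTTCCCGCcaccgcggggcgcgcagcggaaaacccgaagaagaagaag
GINS2, promoter chr16:85688905-85689204, minus strand: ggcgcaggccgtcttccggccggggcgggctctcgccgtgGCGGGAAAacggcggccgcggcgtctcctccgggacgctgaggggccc
E2F2 and E2F1 themselves, which also hold it, stood at -0.61 and -0.48 and did not pass. TYMS and POLA1 hold it and stood at -0.07 and -0.02.

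**Figure D4:**
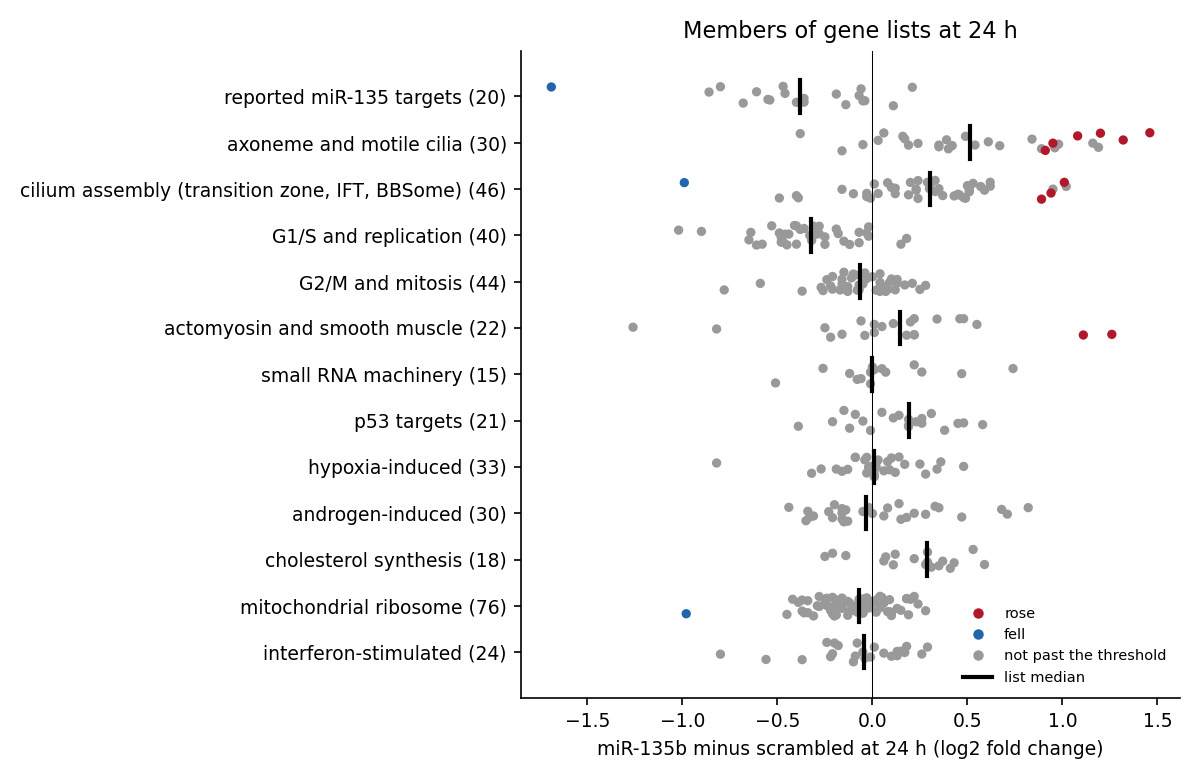
Difference between miR-135b and scrambled at 24 h (x axis, log2 fold change) for each measured member of 13 gene lists, with the number of members in brackets; red points rose, blue points fell, grey points did not pass, and black bars are list medians. The axoneme list has its median at 0.51, the reported targets at -0.38 and the G1/S list at -0.33, while the hypoxia, androgen and small RNA lists lie around 0.

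Pathways that act around the reported targets gave few calls. Over all 11238 genes limma's unadjusted p lay under 0.05 for 1232, and for 2279 with the block. Genes induced by hypoxia, the response that HIF1AN restrains, had a median of 0.01, and 0 of 33 passed with limma (1 at an unadjusted p under 0.05). The glycogen branching enzyme gene GBE1 read 7.80 and 7.65 against 8.43 and 8.67, or -0.82 ± 0.16 (adjusted p = 0.0521, and 0.0288 with the block), and ADM, adrenomedullin, below detection on both scrambled arrays, was at least 1.24-fold higher without a call (adjusted p = 0.481). Of 30 androgen-induced genes 0 passed (5 at an unadjusted p under 0.05), with a median of -0.04, and with the block ALDH1A3 and RAB3B rose by 0.71 and 0.68 and MAF, with no scrambled array above detection, by at least 1.26-fold. Of 9 androgen-repressed genes 0 passed (0 unadjusted), from PEG3 at -0.28 to UGT2B15 at 0.33. Of 15 genes of the small RNA machinery 0 passed (1 unadjusted). DICER1, which cuts microRNA precursors, stood at 0.74 ± 0.20 (0.156, and 0.0226 with the block), with its other probe at 0.23, and MOV10 was the lowest at -0.51. SNARE and vesicle fusion genes, 37 of them with CPLX1, had a median of -0.09.

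Lists of stress and growth control were without a call in either fit, apart from FOS. Of all 11238 genes 51.3% lay above 0. Limma's unadjusted p lay under 0.05 for 1232 of them, and for 2279 with the block. Of 21 p53 targets 14 lay above 0 and 4 had an unadjusted p under 0.05, from TRIAP1 at -0.39 to the cell cycle inhibitor gene CDKN1A at 0.58 (adjusted p = 0.387), with a median of 0.19. Of 18 cholesterol synthesis genes 15 lay above 0 and 0 had an unadjusted p under 0.05 (8 with the block), from ACAT2 at -0.25 to MSMO1 at 0.59 ± 0.27, with a median of 0.29. Fatty acid synthesis ran from ELOVL6 at -0.55 to FADS2 at 0.36, and apoptosis regulators from BCL2L12 at -0.64 to XIAP at 0.58. Interferon-stimulated genes ran from OAS3 at -0.80 to IFIT2 at 0.29, with a median of -0.04, and genes of ATF4 and the unfolded protein response from CHAC1 at -0.24 to PPP1R15A at 0.36. The immediate early gene FOS stood at 0.82 ± 0.35 and passed with the block alone (adjusted p = 0.0399). BMP and TGF-beta targets lay between SMURF1 at -0.24 and TGIF1 at 0.37. The lowest of the WNT targets was RNF43 at -0.53, and their highest, APCDD1, lay below detection on both scrambled arrays. The lowest and the highest YAP/TAZ targets, AMOTL2 and CCN2, each lay below detection on both arrays of a group, so no fold is given for them.

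The state at 24 h was set between those at 12 and 36 h, which come from other arrays. Because the genes were chosen for their values at 24 h, those values are favoured over the other times. Of the 36 rises 35 lay above 0 at 12 h and 36 at 36 h, with medians of 0.38, 1.04 and 1.14 at 12, 24 and 36 h. Of the 55 falls 54 lay below 0 at 12 h and 54 at 36 h, with medians of -0.51, -0.93 and -0.88. Among all genes 48.3% lay above 0 at 12 h and 51.9% at 36 h. Of the 91 genes 4 were called at 12 h and 78 at 36 h. No share of all genes stands beside these counts, so nothing is read from them. All times share one estimate of each gene's spread, which favours genes of small spread at every time.

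Single genes differed in their course, as values. SCML2 stood at -1.26, -1.36 and -1.64 at the 3 times and FOXN3 at -1.04, -1.18 and -1.09. RSPH1 stood at 0.14, 1.46 and 2.05, BBOF1 at 0.42, 1.32 and 1.70, and ACTA2 at 0.32, 1.26 and 1.84. STRADB stood at -0.47, -1.14 and -1.04. The axoneme list had medians of 0.14, 0.51 and 0.68 and the G1/S list of -0.02, -0.33 and -0.53, whereas the reported targets stood at -0.32, -0.38 and -0.27. No difference between times passed for any gene: limma called 0 genes for 24 h minus 12 h and 0 for 24 h minus 36 h, with or without the block. An unadjusted p under 0.05 was reached by 418 and 272 genes, and by 1108 and 887 with the block.

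At 24 h alone 13 genes were called: AHI1, AP3M1, BNIP2, C4orf46, CEP68, CREB3, FBXO33, GHR, KATNIP, PIH1D2, PIP4K2C, PSIP1 and ZNF385A. For each of them the differences from 12 and 36 h were not past the threshold, so they are not shown to be particular to 24 h. AHI1, CREB3 and PIH1D2 lay near background. ZNF385A stood at -0.37 and -0.78 at 12 and 36 h, and PSIP1 at -0.27 and -0.81, on the same side as at 24 h.

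**Figure D5:**
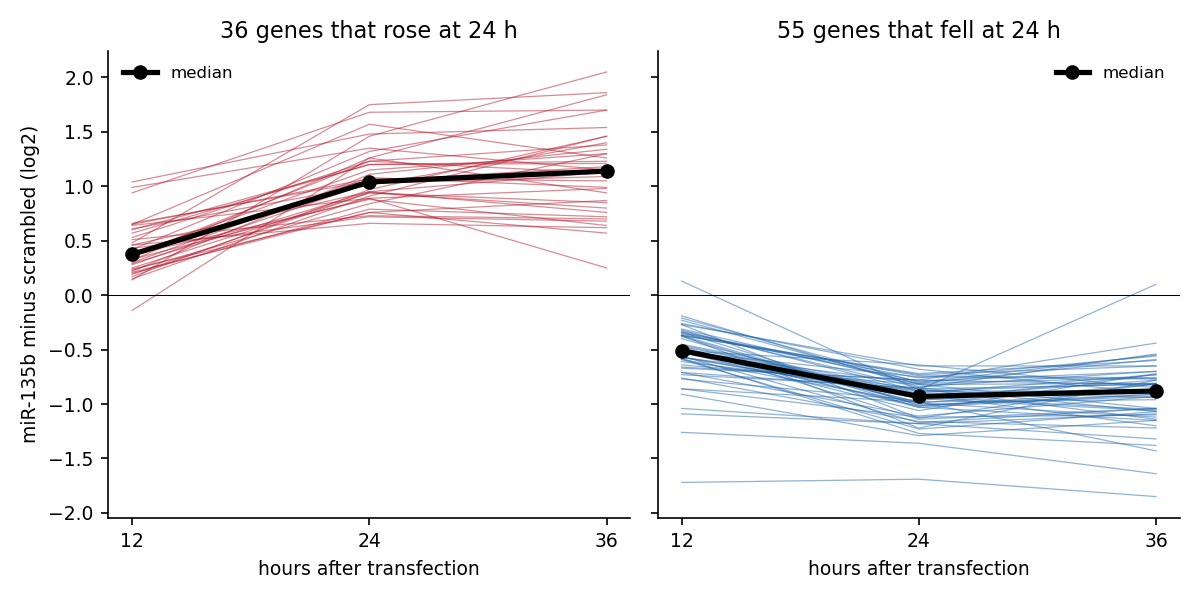
Difference between miR-135b and scrambled (y axis, log2) at 12, 24 and 36 h for the 36 genes that rose at 24 h (left) and the 55 that fell (right), 1 line a gene, with the median in black. The median of the rises goes from 0.38 to 1.04 and 1.14 and that of the falls from -0.51 to -0.93 and -0.88, and the genes were chosen on the middle time.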

How the data were processed

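Total RNA of 12 samples was hybridised to Illumina expression arrays. The deposited table holds, per the file headers, the linear signal intensity of 47323 probes and a detection p-value for each. The authors' processed log2 values, deposited separately, served as an alternative. The submitters' processing notes name GenomeStudio 2010.2 and lumi 1.8.3; the array design's genome build was not used here.

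Background was removed by normexp in limma 3.58.1 (R 4.3.3), with control levels inferred from the detection p-values and an offset of 16, then quantile normalized and put on the log2 scale. The offset shrinks the differences of dim genes. The 19161 probes kept had a detection p under 0.01 on 2 or more of the 12 arrays. Of all probes 30113 have 1 gene name in the platform annotation, 8 have several and 17202 have none there. Probes with 1 name were used, the brightest standing for its gene, which gave 11238 genes, 2909 of them with another kept probe. On the 24 h arrays the median signal before normalization was 99.1 to 115, 33.7% to 37.7% of probes were detected, and the median SD of a gene was 0.123 with miR-135b and 0.126 with scrambled; the number of arrays limits the precision.

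All 12 arrays entered 1 linear model of 6 groups (lmFit and eBayes, 6 residual degrees of freedom), with two-sided tests and Benjamini-Hochberg adjustment over all genes. Same-numbered treated and control arrays deviated together at each time (r = 0.465, 0.456 and 0.584 at 12, 24 and 36 h, against a limit of 0.1). The numbers were therefore taken to pair them in the alternative fit with a block, and the main fit does not use this pairing. With a replicate block inside each time the model has 3 residual degrees of freedom. Where no array of a group detected a probe, a fold is a lower bound, from the bright group's mean against each dim array's lowest detected signal, or the probe's own where that was higher.

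The genes named are the 20 largest rises and falls, all reported miR-135 targets measured, list members called in either fit, the highest and lowest member of a list without a call, and MIR135B; further genes are named as chosen after their values were seen or as members of a list or set described. The text on 1 of the 20 largest falls is not reported here. The comparison, the gene lists and this rule were chosen with earlier results of these data known. Alternatives were the block, the 24 h arrays alone, other normalization and background settings, other detection filters, the mean of a gene's probes and leaving out each array.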

Additional observations from a re-analysis of the deposited data

How the results depend on the processing

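The 36 rises and 55 falls at 24 h became 131 and 173 with the replicate block within each time, 0 and 0 with the 24 h arrays alone, 0 and 0 with the 24 h arrays alone and the replicate block, and 23 and 16 with median scaling. Without 1 of the 4 arrays of 24 h between 2 and 4 genes rose and between 0 and 1 fell. The other settings gave between 35 and 47 rises and between 48 and 76 falls: 47 and 76 on the authors' processed values, and 35 and 48 without the detection filter. No gene called in the main analysis changed direction in a setting that tested it. The fits on fewer arrays have fewer residual degrees of freedom; for the change with median scaling the cause was not tested. Among the settings that leave out no single array, CREB3 lost its call in 8 of 10 that tested it, DNAI7 in 7 of 9, DNAAF11 in 6 of 9 and AHI1, CEP68 and PIH1D2 in 6 of 10 each. The median of the axoneme list was 0.16 without the detection filter, which adds members below detection, and 0.31 to 0.61 otherwise. That of the reported targets was -0.27 to -0.43 and that of the G1/S list -0.26 to -0.41.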

Other observations

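With the replicate block 214 genes passed that did not pass without it, and a few outside the lists are named here after their values were seen. ESRRA, an orphan nuclear receptor that drives oxidative metabolism, read 8.62 and 9.15 on the miR-135b arrays against 9.78 and 10.02 on the scrambled arrays, or -1.02 ± 0.22 (limma adjusted p = 0.0876, and 0.0226 with the block). PNKD read 8.60 and 8.92 against 9.71 and 10.21, or -1.20 ± 0.29 (0.113 and 0.0108), but its other probe read -0.33. Of the genes above 0, LRRC56, which is needed for dynein arms in human cilia, read 8.29 and 8.12 against 7.34 and 7.04, or 1.02 ± 0.22 (0.0876 and 0.0226). DNAL4, an axonemal dynein light chain, stood at 0.64 (adjusted p = 0.0519 without the block), and the transcription regulators KLF9 and CITED2 at 0.67 and 0.65 (0.0521 and 0.0526). H6PD, which makes NADPH inside the endoplasmic reticulum, lay below detection on both scrambled arrays and was at least 1.66-fold higher (0.0629, and 0.0377 with the block). UBXN11 stood at 1.11 (0.113 and 0.0108), while its other probe read -0.02.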
